A study of Mus musculus with 10 samples.

Results

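Passage 20 was compared with passage 10 in male mouse embryonic stem cells (mESCs) kept in Keniry2022 conditions, through the number of genomic DNA reads that fell in each stretch of the autosomes. The comparison took its members by sample label. It set the p20 Keniry2022 libraries (2) against the p10 Keniry2022 libraries (2), which are 4 of the 10 libraries of the series, and used 2391 of 2541 bins of 1 Mb that passed a filter on low counts. Those 2391 lie on chromosomes 1 to 19, which hold 2473 such bins before the filter. X, Y and the p0 cultures were not part of the comparison.

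The study asked whether a modified way of passaging keeps the genome of mESCs closer to that of freshly derived cells. All groups were male C57/Bl6 lines in 2i/LIF medium, which holds mESCs in a naive state through inhibitors of MEK and GSK3 and the cytokine LIF, and the study derived 2 lines independently and split each into both protocols at p0. In Keniry2022 conditions cells were passaged every day, in suspension, at higher density and in more medium, whereas Mulas2019 is the published protocol, with passaging every second day on gelatin. Passage 10 and passage 20 of Keniry2022 conditions are therefore 10 passages apart in the same cultures, and with 2 libraries in each group the smallest two-sided p of an exact permutation test over libraries is 1 in 3.

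Mouse ES cells that gain an extra copy of a chromosome can outgrow their neighbours, and whole-chromosome gains are the abnormality for which such cultures are usually screened. In low-coverage DNA sequencing the number of reads in a bin is proportional to its copy number, so that an extra copy of an autosome in every cell would raise it by 0.58 on the log2 scale. The count also depends on base composition, since fragments rich in G and C are amplified and sequenced with another efficiency than fragments rich in A and T, and this dependence differs from library to library. Bulk DNA averages over all cells of a culture, so that more extra copies per cell and more cells with an extra copy cannot be told apart.

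The depth was 31482659 and 32435718 reads for p10 Keniry2022 replicates 1 and 2, and 32707364 and 33003961 reads for the p20 Keniry2022 libraries labelled replicates 1 and 2. This gave a median of 13168 to 13749 reads per autosomal bin, with a counting error of 0.853% to 0.871%. Reads on Y went against the replicate numbers of the p20 libraries. They made up 0.00111% and 0.0570% of p10 replicates 1 and 2 and 0.0441% and 0.000673% of the p20 libraries labelled replicates 1 and 2. In each of the other 4 groups the library labelled replicate 2 held nearly all of them, whereas at p20 Keniry2022 it was that labelled replicate 1. Of 7 autosomal 10 kb windows in which the lines differed by over 0.4 (log2) in the same direction in the other 4 groups, 4 differed the opposite way at p20 Keniry2022, by 0.63, -0.53, -1.15 and -1.43 for replicate 1 minus replicate 2, and 3 differed by under 0.1. The window chr13:119590001-119600000, which overlaps Tmem267, had 177 reads in p10 replicate 1 and 111 in replicate 2, against 121 and 176 in the p20 libraries with these numbers. These windows were chosen after their values were seen. The p20 libraries are called by their labels below, and groups are compared by their means, which do not depend on the numbering.

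Sequence is shown from the bins with the most extreme values, as examples from bins that differ in GC content. Each stretch of 150 bases comes from the middle of the 10 kb window whose GC content is nearest to that of its bin, and is read on the plus strand of GRCm38 (mm10) with G and C in capitals. The first stretch, at chr3:89154926-89155075, belongs to the bin with the highest change (GC content 48.5%), and the next, at chr7:145334926-145335075, to the highest bin outside chromosome 3 (50.05%).
Bin chr3:89000001-90000000: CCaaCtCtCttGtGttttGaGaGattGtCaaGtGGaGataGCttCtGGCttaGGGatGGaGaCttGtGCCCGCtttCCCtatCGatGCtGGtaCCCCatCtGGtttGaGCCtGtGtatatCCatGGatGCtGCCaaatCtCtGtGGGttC
Bin chr7:145000001-145441459: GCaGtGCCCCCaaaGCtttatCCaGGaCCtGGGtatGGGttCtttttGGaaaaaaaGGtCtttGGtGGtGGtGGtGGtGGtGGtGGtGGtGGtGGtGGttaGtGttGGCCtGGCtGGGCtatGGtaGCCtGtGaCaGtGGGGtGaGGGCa
The lowest bin was at chr2:98000001-99000000 (GC content 36.5%) and the next at chr1:110000001-111000000 (36.0%). The stretch shown for the lowest bin, at chr2:98484926-98485075, has 57.3% G or C and so is richer in G and C than the 10 kb window it stands in, and than the stretches from both highest bins. The stretch shown for the next bin is at chr1:110224926-110225075.
Bin chr2:98000001-99000000: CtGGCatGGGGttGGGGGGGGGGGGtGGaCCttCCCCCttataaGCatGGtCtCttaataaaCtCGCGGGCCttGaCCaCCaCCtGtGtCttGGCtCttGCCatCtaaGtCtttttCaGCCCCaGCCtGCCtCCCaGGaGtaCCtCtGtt
Bin chr1:110000001-111000000: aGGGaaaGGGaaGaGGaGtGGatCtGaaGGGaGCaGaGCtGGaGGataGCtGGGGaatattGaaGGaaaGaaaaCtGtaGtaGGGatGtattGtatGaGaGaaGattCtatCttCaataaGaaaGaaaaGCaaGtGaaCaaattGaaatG
The lowest bin also held a single 10 kb window, chr2:98660001-98670000, with 57026 or more reads in each of the 10 libraries. The 150 bases at chr2:98664926-98665075 come from its middle.
High-count window of chromosome 2: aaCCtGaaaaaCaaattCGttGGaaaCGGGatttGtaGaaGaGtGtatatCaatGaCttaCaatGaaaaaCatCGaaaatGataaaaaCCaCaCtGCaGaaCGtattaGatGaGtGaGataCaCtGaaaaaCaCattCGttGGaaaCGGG

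No autosomal bin passed a test against a minimum change. The methods print this minimum as a log2-fold change of 1.1, read here as a fold change of 1.1, which is less strict, and with either reading 0 bins passed. TREAT, limma's test beyond a set threshold, was run at that fold change, and 0 of 2391 autosomal bins and 0 of all 2541 bins tested (0%) had a Benjamini-Hochberg adjusted p under 0.05, and 0 autosomal bins had an unadjusted p under 0.05. With voom on the recovered reads both counts were also 0. Changes were small. The log2FC of p20 over p10 ranged from -0.29 to 0.17 with a median of -0.005 and an SD over bins of 0.071. It exceeded 0.1 in 94 bins and was below -0.1 in 354 bins.

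Without a minimum change, limma called 322 autosomal bins higher and 673 lower at p20. Over all 2541 bins the same test called 12.7% higher, 28.9% lower and 41.6% in either direction, so that the autosomal bins stood at the background, of which they are the larger part. Both p20 libraries lay above both p10 libraries in 820 autosomal bins and below both in 1010, beside a background over all bins tested, X and Y included, of 32.4% and 44.7%. The number of calls depended on the libraries in the fit. Without p10 replicate 2 and without the p20 library labelled replicate 1, 0 bins passed, with 721 and 785 at an unadjusted p under 0.05. Without the p20 library labelled replicate 2 the counts were 83 and 353, and without p10 replicate 1 they were 522 and 773. The SD of the change over bins moved less, to 0.056 without p10 replicate 2 and 0.065 without the p20 library labelled replicate 1.

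The direction of the change followed base composition. When autosomal bins were divided by GC content into 5 classes of 478 or 479, the median log2FC was -0.11 in the class poorest in G and C (35.7% to 38.5%), and -0.06, -0.01, 0.03 and 0.07 in the classes that follow. In the poorest class, 422 bins were called lower with no minimum and 0 higher. In the richest class (44.99% to 53.7%), 253 were called higher and 0 lower. In the poorest class the median level was 8.11 and 8.18 log2 CPM in the p10 libraries and 8.04 and 8.05 in the p20 libraries, and in the richest class it was 9.05 and 8.99 at p10 and 9.09 in each library at p20. In both classes the p20 medians lay outside the range of the p10 medians. Across the 2391 bins Pearson's r of the change with GC content was 0.88, and it was 0.95 over the bins outside chromosome 3. Bins share the 4 libraries and are not independent replicates, so that these r are given as a description.

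**Figure D1:**
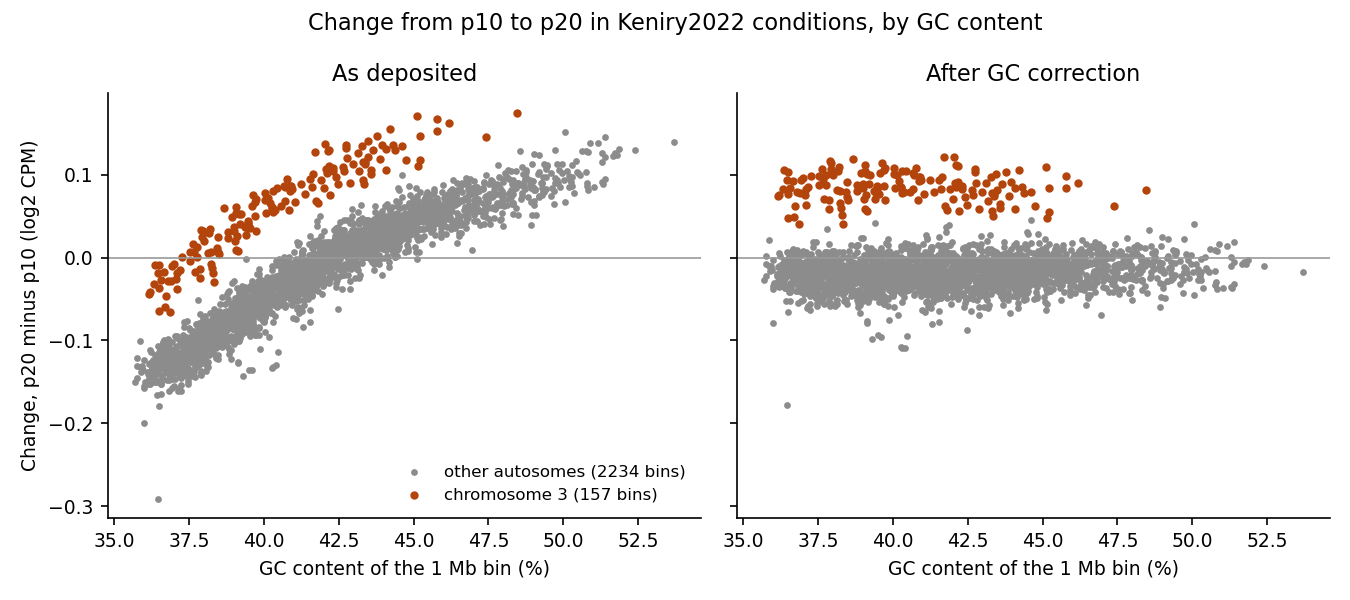
Log2FC of p20 over p10 in Keniry2022 conditions (vertical axis, log2 CPM) against the GC content of each autosomal 1 Mb bin (horizontal axis, %), as deposited on the left and after GC correction on the right. Each point is 1 bin; chromosome 3 (157 bins) is in orange and lies above the band formed by the other bins in both panels.

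The same pattern appeared in the single libraries. The level of autosomal bins rose with GC content in all of them, with a slope of 0.089 and 0.077 log2 units per percent GC at p10 and 0.101 and 0.0997 at p20. The slope of the log2 ratio of replicate 2 over replicate 1 was -0.012 at p10 and -0.0016 at p20. Each of the 4 pairs of a p20 and a p10 library had a positive slope of the log2 ratio, between 0.011 and 0.024. The SD over bins of the log2 ratio was 0.050 to 0.097 in these pairs, 0.049 between the p10 libraries and 0.034 between the p20 libraries. The smallest p20 to p10 spread was thus about as large as that between the p10 lines. For comparison, the slope was 0.116 and 0.112 at p0, 0.040 and 0.034 at p10 Mulas2019, and 0.081 and 0.074 at p20 Mulas2019. In both protocols the slope was higher at p20 than at p10 in each library. Whether library preparation or sequencing run differed between passages is not given in the labels, and its part in the slope was not tested.

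**Figure D2:**
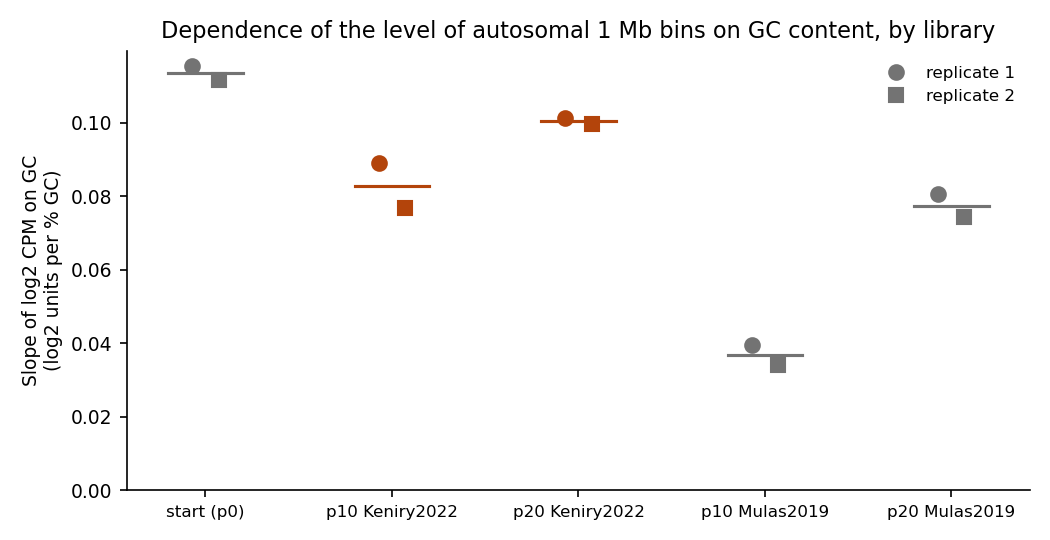
Slope of log2 CPM on GC content over autosomal 1 Mb bins (vertical axis, log2 units per % GC) in each of the 10 libraries, by group (horizontal axis). Circles are replicate 1 and squares replicate 2 as labelled, and the horizontal lines are means of 2; Keniry2022 libraries, in orange, moved from 0.089 and 0.077 at p10 to 0.101 and 0.0997 at p20.

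When a curve of level on GC content was removed from each library, the change shrank. The SD of the log2FC was 0.032 over autosomal bins, and 0.019 over those outside chromosome 3. Their range outside chromosome 3 was -0.18 to 0.045. The test with no minimum then called 0 of 2391 autosomal bins and 0% of all bins tested, with 38 higher and 420 lower at an unadjusted p under 0.05. The median autosomal log2FC was -0.017 after this correction, and GC-corrected values of single bins and gene lists are to be read against it, whereas levels and shifts of chromosomes and segments are already relative to the median autosomal bin. Both p20 libraries were above both p10 libraries in 195 bins and below both in 1121, beside a background over all bins tested of 7.75% and 47.2%. These counts, and those at an unadjusted p under 0.05, are not centred on that median, so their lean to lower bins includes this offset.

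Gene content went with GC content. Bins with 0 protein-coding gene starts (275) had a median log2FC of -0.11, and bins with 20 or more (275) had 0.046. After GC correction the medians of the 4 classes of gene content were -0.018, -0.014, -0.016 and -0.023, from the fewest to the most genes. The last 5 Mb of each chromosome (95 bins, median GC content 43.9%) had a median log2FC of 0.031, and the first 8 Mb (91 bins, 41.4%) had -0.004. After GC correction both were at -0.017.

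Chromosome 3 was the autosome that stood apart. It carries genes such as Sox2, Fgf2 and Pik3ca, and its level is expressed here as the median of its bins relative to the median autosomal bin. As deposited, this level was -0.138 and -0.114 (log2) in p10 replicates 1 and 2, 0.001 in the p20 library labelled replicate 1 and -0.100 in that labelled replicate 2. Both p20 libraries were above both p10 libraries, as they also were on chromosomes 5, 7, 8, 9 and 11. On chromosome 3 the p20 library labelled replicate 2 exceeded p10 replicate 2 by 0.014. The shift of the group means was 0.08 (SE 0.051), and limma over 20 chromosomes gave an adjusted p of 0.244. Without the p20 library labelled replicate 1 this shift was 0.026, and without that labelled replicate 2 it was 0.127.

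After GC correction the level of chromosome 3 was 0.027 and 0.040 at p10, and 0.180 and 0.088 in the p20 libraries labelled replicates 1 and 2. The groups did not overlap, as was also so on chromosomes 1, 2, 6, 10, 13, 16 and 17, where both p20 libraries were the lower. The shift was 0.10 (SE 0.053), with an adjusted p of 0.358. The 4 differences between a p20 and a p10 library were 0.153, 0.140, 0.061 and 0.048, so that all were positive but their spread was wide. Without the p20 library labelled replicate 1 the shift was 0.054, and without that labelled replicate 2 it was 0.147. On a scale where the median autosomal bin has a dose of 2, chromosome 3 had a dose of 2.04 and 2.06 at p10, and of 2.27 and 2.13 at p20. Its share of all reads was 5.996% (95% Wilson interval 5.988% to 6.004%) and 6.15% (6.14% to 6.15%) at p10, and 6.58% (6.57% to 6.59%) and 6.18% (6.17% to 6.19%) at p20. PCR duplicates were not told apart from independent fragments, so these intervals hold for counting error alone.

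The change of chromosome 3 ran along its whole length. Of its 157 bins, 157 had a positive log2FC after GC correction, and in 141 both p20 libraries were above both p10 libraries, against the background of 7.75% given above. When the chromosome was divided into 16 segments of 10 Mb, both p20 libraries were above both p10 libraries in 16 of 16, and the library labelled replicate 1 was the highest in 16 of 16. The change per segment was 0.076 to 0.122. Relative to the mean of the p10 libraries, the library labelled replicate 1 was higher by 0.120 to 0.174 and that labelled replicate 2 by 0.027 to 0.075. The 231 segments of the other autosomes with 5 or more bins changed by -0.041 to 0.031, and 0 of them by over 0.05 in size. Segments of 1 chromosome share their libraries, so their number does not add replicates.

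**Figure D3:**
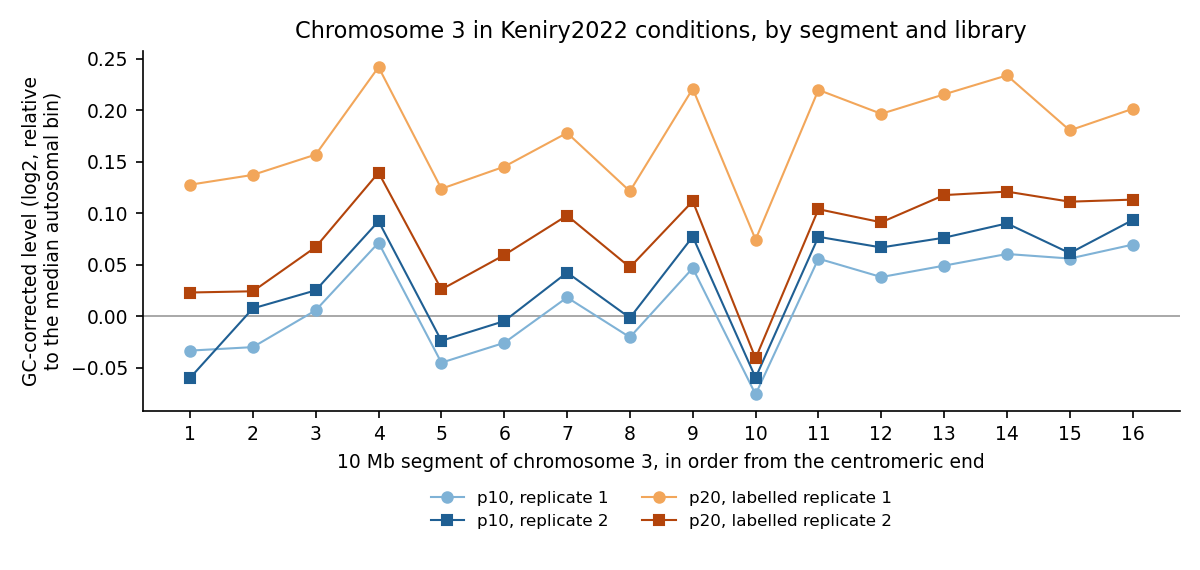
GC-corrected level (vertical axis, log2, relative to the median autosomal bin) of the 16 segments of 10 Mb of chromosome 3, in order from the centromeric end (horizontal axis), in the 4 Keniry2022 libraries. Each point is the median of the bins of 1 segment in 1 library; the p20 library labelled replicate 1 is highest and that labelled replicate 2 next in each segment.

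The library with reads on Y had the higher level of chromosome 3 at each passage. At p10 it was 0.040 against 0.027, and at p20 it was 0.180 against 0.088. In Mulas2019 conditions the GC-corrected levels were 0.019 and 0.078 at p10 and 0.110 and 0.270 at p20, again higher in the library with reads on Y. The change from p10 to p20 in Keniry2022 minus that in Mulas2019 was 0.04 for chromosome 3 as deposited (limma adjusted p 0.709) and turned to -0.04 after GC correction (adjusted p 0.674).

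The other autosomes moved little. As deposited, 0 of 19 autosomes and 0% of the 20 chromosomes in the fit passed at an adjusted p of 0.05, with 7 autosomes at an unadjusted p under 0.05. Besides chromosome 3, the highest shifts were those of chromosome 11 (0.033, SE 0.016) and chromosome 5 (0.032, SE 0.011), and the lowest those of chromosome 16 (-0.039, SE 0.012, adjusted p 0.103), chromosome 4 (-0.024, SE 0.010) and chromosome 14 (-0.022, SE 0.009). These shifts depended on p10 replicate 2 and p10 replicate 1. Without the first, chromosome 11 was at 0.013, chromosome 5 at 0.020, chromosome 16 at -0.025 and chromosome 14 at -0.011. Without the second they were at 0.053, 0.044, -0.053 and -0.033, each with a limma adjusted p of 0.0324, and 6 autosomes passed. Without the p20 library labelled replicate 1 chromosome 4 was at -0.015, and without that labelled replicate 2 chromosome 5 was at 0.018 and chromosome 11 at 0.021. The levels of chromosome 11 were 0.220 and 0.180 at p10 and 0.221 and 0.244 at p20. Those of chromosome 16 were -0.108 and -0.080 at p10 and -0.139 and -0.127 at p20, with both p20 libraries the lower. Over the 18 autosomes other than 3, Pearson's r of the shift with the median GC content was 0.85, as a description over chromosomes that share their libraries. After GC correction these 18 shifts lay between -0.010 and 0.002. Between any p20 and any p10 library they differed by -0.019 to 0.007, beside 0.58 for an extra copy in every cell.

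Chromosome 1 passed the test after GC correction. It was the lowest of the 18, with a shift of -0.010 (SE 0.0017, limma adjusted p 0.0172), and 5% of the 20 chromosomes were called. Its GC-corrected levels were -0.007 and -0.009 at p10 and -0.018 in each p20 library. Chromosomes 8 and 11, which are often gained in mouse ES cell culture, had GC-corrected shifts of 0.002 and -0.004.

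**Figure D4:**
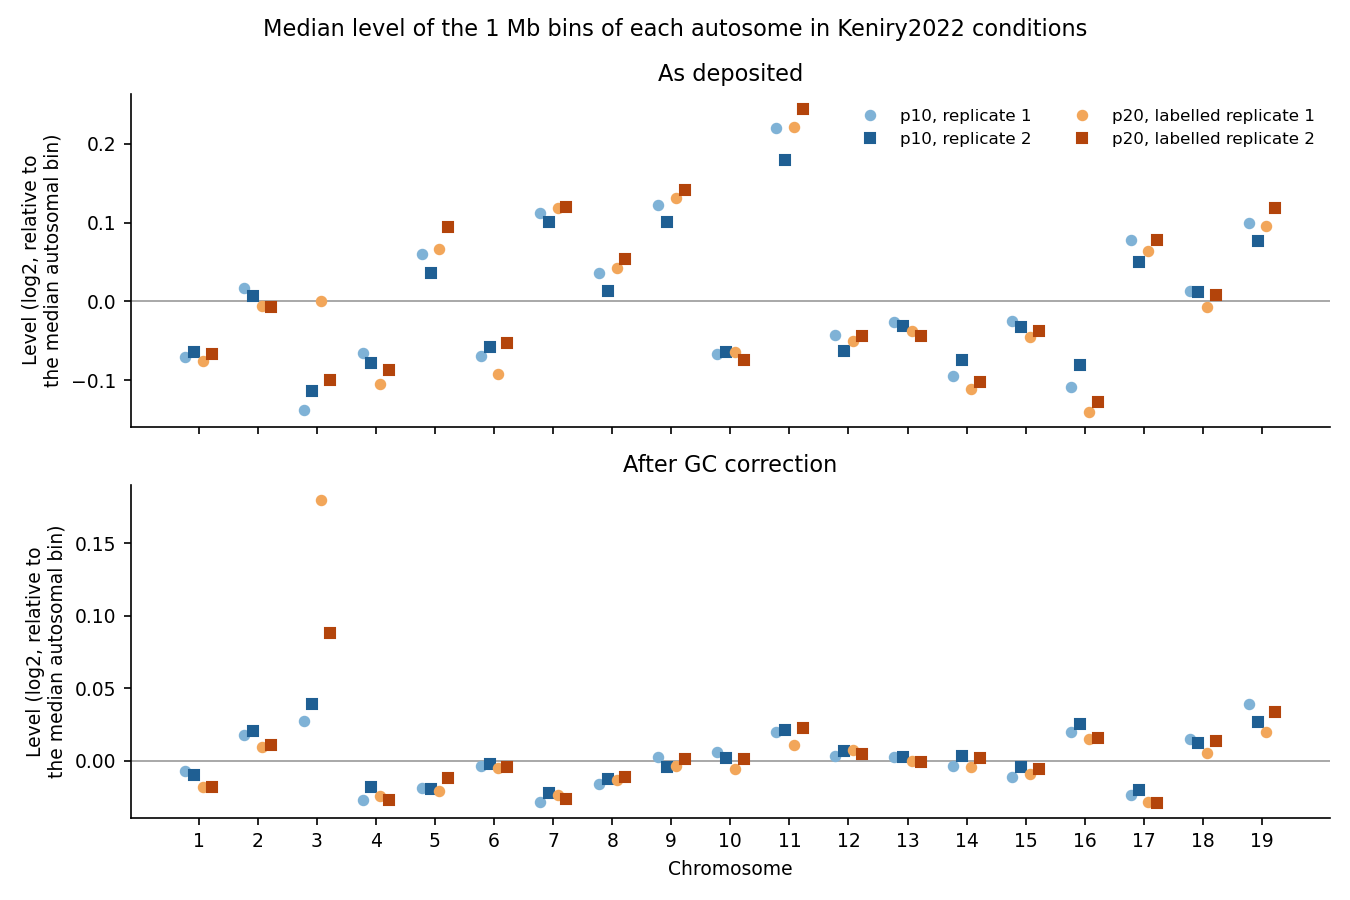
Level of each autosome (vertical axis, median log2 CPM of its 1 Mb bins relative to the median autosomal bin) in the 4 Keniry2022 libraries, as deposited in the upper panel and after GC correction in the lower panel. Circles and squares are replicates 1 and 2 as labelled; after correction the p20 libraries stand apart on chromosome 3, at 0.180 and 0.088, and differ from the p10 libraries by under 0.02 on each other autosome.

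The highest bins lay on chromosome 3. The 4 described here were chosen among bins with non-overlapping groups, at most 2 a chromosome, and rank 1, 2, 7 and 11 of all autosomal bins by change, and every bin ranked between them lay on chromosome 3. Bin chr3:89000001-90000000, whose 38 protein-coding genes include Adar (RNA editing), Cks1b (a partner of cyclin-dependent kinases) and Shc1 (an adaptor of receptor tyrosine kinases), had 9.17 and 9.11 log2 CPM at p10 and 9.35 and 9.28 at p20. Its log2FC was 0.17 (SE 0.047), the TREAT p before adjustment was 0.227 and the adjusted p with no minimum was 0.020. Bin chr3:51000001-52000000, which holds Ndufc1 (a subunit of respiratory complex I) and Setd7 (a lysine methyltransferase), had 8.94 and 8.93 at p10 and 9.16 and 9.06 at p20, with a log2FC of 0.17 (SE 0.045). After GC correction these bins had 0.08 and 0.11, within the range of the bins of chromosome 3.

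The highest bins elsewhere were rich in G and C. Bin chr7:145000001-145441459, with Tpcn2 (a lysosomal cation channel), had 7.59 and 7.56 log2 CPM at p10 and 7.73 and 7.72 at p20 (log2FC 0.15, SE 0.035). Bin chr11:118000001-119000000, with Timp2 (an inhibitor of metalloproteinases) and Rbfox3 (a neuronal splicing factor), had 9.13 and 9.04 at p10 and 9.24 and 9.22 at p20 (log2FC 0.15, SE 0.036). They had 0.04 and 0.02 after GC correction. As deposited they had 0.14 and 0.10 without p10 replicate 2, and 0.17 and 0.19 without p10 replicate 1. With no minimum the adjusted p of these 4 bins was 0.014 to 0.020, and it was 0.110 to 0.154 without p10 replicate 2 and 0.113 to 0.137 without the p20 library labelled replicate 1.

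The 4 lowest bins were gene-poor and rich in A and T. Bin chr1:110000001-111000000, whose only protein-coding gene start is that of Cdh19 (a cadherin), had 8.02 and 8.04 log2 CPM at p10 and 7.79 and 7.87 at p20. Its log2FC was -0.20 (SE 0.035, TREAT p before adjustment 0.0536). The neighbours chr14:81000001-82000000 and chr14:82000001-83000000, with 0 protein-coding gene starts, had log2FC of -0.18 (SE 0.031) and -0.17 (SE 0.035). That the groups do not overlap in these bins follows from how they were chosen. The adjusted p with no minimum was 0.012 to 0.013. After GC correction the log2FC were -0.08, -0.07 and -0.05, with a limma adjusted p of 0.143 to 0.161. Leaving out 1 library in turn gave -0.24 to -0.16, -0.21 to -0.15 and -0.19 to -0.14 as deposited.

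The lowest bin of all, chr2:98000001-99000000, held the high-count window. The bin had 11.43 and 11.48 log2 CPM at p10 and 11.29 and 11.04 at p20 (log2FC -0.29, SE 0.70), with an adjusted p with no minimum of 0.748. This SE is limma's moderated value, drawn along a trend with level, and exceeds the differences between libraries of a group in this bin. Without the p20 library labelled replicate 2 the log2FC was -0.16. Without that window it was -0.12 and the bin was called lower (limma adjusted p 0.0281), and voom also called the whole bin (adjusted p 0.0433). The window took 0.253% and 0.262% of reads at p10 and 0.230% and 0.188% at p20, and its log2 change was -0.31. It holds 6 matches, on both strands, to the 15 letters of the CENP-B box, the element of the minor satellite repeat of mouse centromeres that CENP-B binds. Of 239715 autosomal windows of 10 kb, 0.228% hold a match, and the most in another window is 2.

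Single windows of 10 kb did not join into longer runs. Over 234216 autosomal windows with a mean of 30 or more reads, the SD of the log2 change was 0.160, beside 0.122 from counting alone at the median window. With the groups not overlapping, 113 windows were higher by over 0.5 and 824 lower, 0 in either direction by over 1, and the longest run of neighbours was 1 and 2 windows. The median GC content was 42.3% in the higher and 37.5% in the lower windows, and 41.4% over all. At 100 kb, TREAT called 0 of 23742 autosomal bins, with 136 at an unadjusted p under 0.05.

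Gene loci were read through the 1 Mb bin that holds the start of the gene, so that genes close together share a value, and the values are DNA doses, not expression. None of the 9 gene lists had a bin that passed TREAT at the minimum change of 1.1-fold, where the background is also 0%. Of the genes named below as called with no minimum, only Rps15 was also called in its 100 kb bin (limma adjusted p 0.0374). Among loci of naive pluripotency factors (19 bins, median GC content 45.9%) 6 bins were called higher and 1 lower with no minimum, and the median log2FC was 0.06. All autosomal bins had a median of -0.005, and 12.7% and 28.9% of all bins were called higher and lower. After GC correction the median of the list was -0.017, equal to that of all autosomal bins to this precision.

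Pou5f1, which encodes the core pluripotency factor Oct4 (chr17:35506018-35510772), lies in a bin with 8.97 and 8.90 log2 CPM at p10 and 9.02 in each library at p20, with a log2FC of 0.08 (SE 0.025) that was -0.01 after GC correction. As deposited it was 0.05 without p10 replicate 2 and 0.12 without p10 replicate 1. Nanog (chr6:122707489-122714633), another core factor, lies in a bin with 8.76 and 8.72 at p10 and 8.72 in each library at p20 (log2FC -0.02, SE 0.019). In its 100 kb bin Nanog had -0.15 (limma adjusted p with no minimum 0.0483), where 1059 of 23742 autosomal 100 kb bins were called. After GC correction it had -0.22 there, given as a description. Sox2 (chr3:34650405-34652461), their partner, lies on chromosome 3, in a bin with 8.95 and 8.96 at p10 and 9.10 and 9.04 at p20. Its log2FC of 0.12 (SE 0.046) was the highest of the list and stayed at 0.08 after GC correction. Klf4 and Esrrb, further factors of the naive network, lie in bins with log2FC of 0.00 and 0.09, and Dppa4, a gene of early embryos, in the lowest bin of the list (-0.06, adjusted p with no minimum 0.042).

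The loci of the 2i/LIF pathway, which holds the targets of both inhibitors and the LIF receptor chain (21 bins), had a median log2FC of 0.04, with 4 called higher and 1 lower. Its highest bin was that of Grb2, an adaptor upstream of Ras (0.10), with 9.09 and 8.96 log2 CPM at p10 and 9.12 in each library at p20. For growth control and genome guard (24 bins) the median was 0.04, with 4 called higher and 1 lower. Over all bins tested 12.7% were called higher and 28.9% lower. Akt1, a kinase of growth signalling, had 0.13 (SE 0.034) and Chek1, a checkpoint kinase, -0.05 (SE 0.018). Trp53, the p53 tumour suppressor, had 0.05, Myc, a driver of proliferation, -0.05, and Cdkn2a, an inhibitor of the cell cycle, -0.03. None of these 3 was called with no minimum. Without p10 replicate 1, Trp53 was at 0.09 and Myc at -0.08, both called (limma adjusted p 0.0462 and 0.0166), and without p10 replicate 2 they were at 0.012 and -0.015. Without the p20 library labelled replicate 2, Cdkn2a was at -0.020. Bcl2l1 and Aurka on distal chromosome 2, which encode an inhibitor of apoptosis and a mitotic kinase, had 0.05 and 0.08. Without p10 replicate 2 they were at 0.018 and 0.040, and without p10 replicate 1 at 0.083 and 0.115.

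Loci of spindle and chromosome segregation genes (19 bins) had a median of 0.04, with 5 called higher and 1 lower, from -0.08 at Rad21, a cohesin subunit, to 0.08 at Aurka. Loci of DNA methylation and imprinting (17 bins) had a median of 0.06, with 5 called higher and 2 lower, from -0.10 at the imprinted Snrpn to 0.09 at Uhrf1, a partner of Dnmt1. The bin of Uhrf1 had 9.21 and 9.08 log2 CPM at p10 and 9.24 in each library at p20. That of Snrpn had 7.80 and 7.86 at p10 and 7.72 and 7.76 at p20. Ribosomal protein loci (73 bins) had a median of 0.06, with 17 called higher and 6 lower, between Rpl10l (-0.11) and Rps15 (0.14). The bin of Rps15 had 9.18 and 9.02 log2 CPM at p10 and 9.25 and 9.22 at p20. These counts stand beside 12.7% higher and 28.9% lower over all bins tested. These lists lie in bins with a median GC content of 45.001% to 46.1%, and their medians after GC correction were -0.027 to -0.010. Without p10 replicate 2 the medians as deposited were 0.022 for naive pluripotency, 0.010 for 2i/LIF, 0.018 for growth control, 0.012 for the spindle, 0.029 for DNA methylation and 0.024 for ribosomal proteins. Without p10 replicate 1 they were higher, at 0.053 to 0.091.

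Both lists in bins with a lower GC content than the median bin had negative medians. Very long genes and fragile sites (20 bins, median GC content 39.0%) had a median of -0.06, with 1 bin called higher and 11 lower. The lowest was Cadm2, a cell adhesion gene (-0.15, SE 0.034), with 7.95 and 8.03 log2 CPM at p10 and 7.82 and 7.86 at p20, and the highest was Wwox (0.09, SE 0.017), which spans a common fragile site. Olfactory receptor loci (82 bins, 41.3%) had a median of -0.02, with 8 called higher and 27 lower, beside 12.7% and 28.9% over all bins tested. They lay between Olfr138 (-0.15) and Olfr1402 on chromosome 3 (0.13). Taken over the genes of this list, each read in its 100 kb bin, the median was -0.09. Clusters of many genes weigh more there, so that it cannot be set beside -0.02 directly. After GC correction the medians of these lists were -0.013 and -0.024.

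A list of chromosome 3 genes of growth and pluripotency (12 bins) had 12 of 12 bins with both p20 libraries above both p10 libraries, and a median of 0.11 that stayed at 0.08 after GC correction and was 0.062 as deposited without the p20 library labelled replicate 1. With no minimum 4 were called higher and 0 lower. Over the 157 bins of chromosome 3, 77 lay above both and 32 were called higher, with a median of 0.06, and over all bins tested 32.4% lay above both and 12.7% were called higher. Pik3ca, the catalytic subunit of PI3-kinase (chr3:32397671-32468486), had the highest bin, with 8.96 and 8.97 log2 CPM at p10 and 9.15 and 9.06 at p20 (log2FC 0.14, SE 0.044, adjusted p with no minimum 0.030). Cenpe, a kinesin of the kinetochore, had the lowest (0.07, SE 0.047), with 8.83 and 8.87 at p10 and 8.96 and 8.88 at p20. These genes share 1 chromosome, and the library labelled replicate 1 was the higher at p20 in the bins of both.

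**Figure D5:**
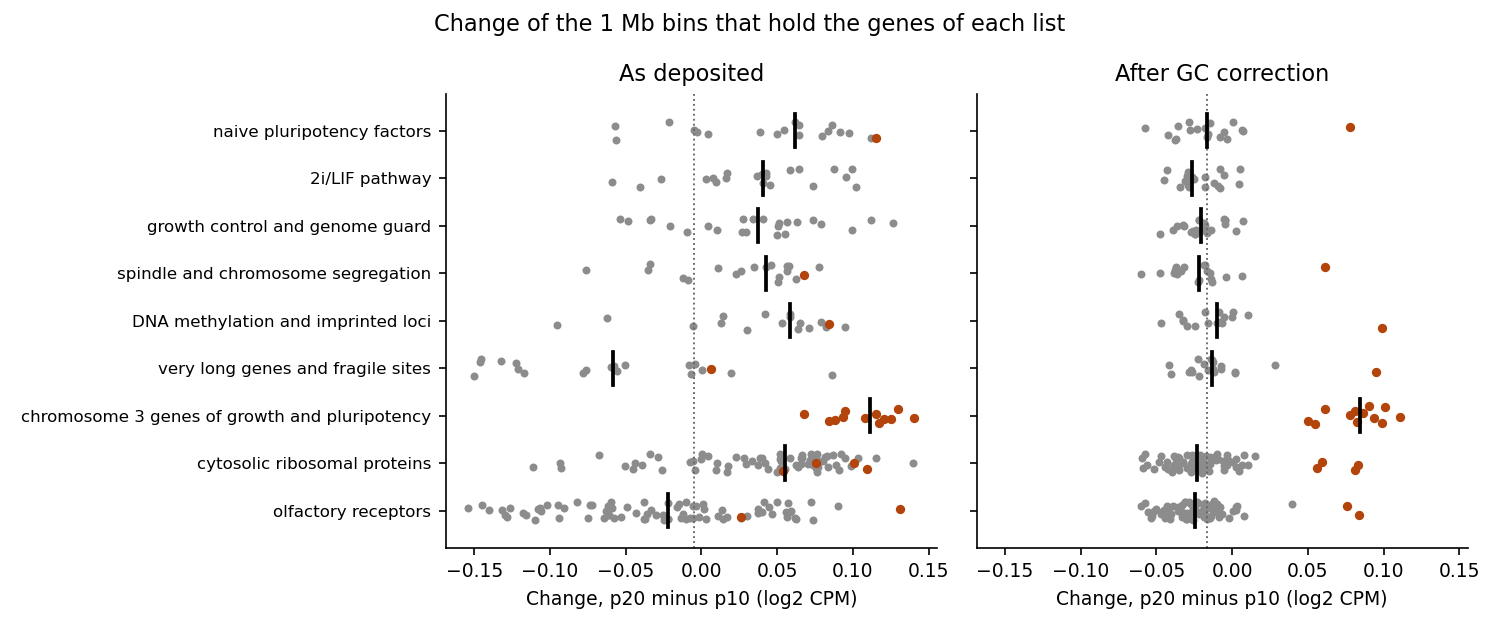
Log2FC of p20 over p10 (horizontal axis, log2 CPM) of the 1 Mb bins that hold the genes of each list (vertical axis), as deposited on the left and after GC correction on the right. Points are bins, orange for chromosome 3, black bars are list medians and the dotted line is the median of all autosomal bins; after correction list medians lie between -0.027 and -0.010 except that of the chromosome 3 list, at 0.084.

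The change from p10 to p20 was also set against that in Mulas2019 conditions, in the same fit. The SD over autosomal bins was 0.071 in Keniry2022 and 0.157 in Mulas2019 conditions, and the slope on GC content was 0.018 and 0.041 per percent. TREAT on the difference called 0 of 2391 autosomal bins, with 46 at an unadjusted p under 0.05. With no minimum, 436 bins had a higher and 281 a lower change in Keniry2022 than in Mulas2019 conditions, while over all bins tested 19.3% and 11.1% did, 30.4% in either direction. This number was 0 without p10 replicate 1 and without the p20 library labelled replicate 2, 320 without that labelled replicate 1 and 1179 without p10 replicate 2. The difference had a slope of -0.023 per percent GC, and after GC correction 0 autosomal bins passed, beside 0.0394% of all bins tested, X and Y included, with 289 at an unadjusted p under 0.05. Outside chromosome 3 the GC-corrected SD of the change was 0.019 in Keniry2022 and 0.027 in Mulas2019 conditions, a difference that was not tested.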

How the data were processed

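Genomic DNA of 10 mESC libraries was sequenced at low coverage (single-end reads), and the authors aligned reads to mm10 with Bowtie2 after demultiplexing with bcl2fastq, per the labels, which give no versions. The deposited values are log2 read numbers in 272566 windows of 10 kb, each library scaled to the largest, with 0.9 reads as placeholder in empty windows. Undoing the log2 and the scale gave whole reads for 100% of values (tolerance 0.1 reads). The 21 chromosome ends equal those of GRCm38.

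Reads were summed in 1 Mb bins (mean CPM at least 0.1 of the median bin). Log2 CPM was fitted with limma 3.58.1 in R 4.3.3 on all 10 libraries in 5 groups without a replicate block, because the p20 Keniry2022 numbers, which name the lines, may be crossed by reads on Y. GC-corrected deviations of same-numbered libraries correlated at -0.69 to -0.04 in pairs with that group and at 0.01 to 0.52 in the others, but without chromosome 3 at -0.08 to 0.05 and -0.05 to 0.18, and as deposited without chromosome 3 all pairs with that group were positive (0.10 to 0.31). The fit was run with TREAT at a minimum fold change of 1.1 and Benjamini-Hochberg adjustment (0.05) over all 2541 bins. The methods' own fit used voom with a replicate block. Voom without a block and a block without voom were run as alternatives, but not both together. The test with no minimum was run beside it, and its counts in each direction were added after the data were seen. Chromosomes were tested as the median of their bins relative to the autosomal median. For the GC correction, log2 CPM was smoothed on GC content by loess (span 0.3) in each library and the curve subtracted. Bins named were the 4 highest and 4 lowest with groups that did not overlap, at most 2 a chromosome. Named chromosomes were the 3 highest, the 3 lowest and chromosome 3, and named genes were chosen loci and the extremes of each list, of which some are not reported here. Chromosomes 1 and 12, named beyond this rule because they passed a test, and chromosome 8 were chosen after their values were seen. Gene starts are from GENCODE M21, and sequences from RefSeq's GRCm38. The fit of 1 Mb bins was also run on simulated bins with known changes, whose outcome is not given here. The comparison, the lists and the rule were chosen with earlier results of these data known. Labels do not say whether libraries share a preparation or run, so p-values measure the spread between these libraries only. For bins, limma moderates that spread along a trend with level.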

Additional observations from a re-analysis of the deposited data

Results flagged for a closer look

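The change from p10 to p20 differed between protocols in 717 autosomal bins by limma's test of the difference with no minimum, and in 0 after GC correction. The difference, Keniry2022 minus Mulas2019, was 0.20 in bin chr1:110000001-111000000 (adjusted p 0.0190), 0.14 in chr14:81000001-82000000 (0.0368) and 0.18 in chr14:82000001-83000000 (0.0269), all by the same limma test.

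Chromosome 12 was the autosome for which the difference between protocols passed, at 0.056 (limma adjusted p 0.0350), while 10% of the 20 chromosomes passed. After GC correction it was 0.010 (adjusted p 0.387), and the call was lost without either p20 Keniry2022 library.

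The p20 Keniry2022 library labelled replicate 1 had 0.0441% of its reads on Y, a chromosome outside the comparison, where replicate 1 of the other groups had at most 0.00145%. The study reports that a line lost Y during derivation, ahead of the cultures that were compared. At p0, reads on Y made up 0.00145% of replicate 1 and 0.0554% of replicate 2. Whether the p20 numbers were exchanged was not tested beyond these values and those given above.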

How the results depend on the processing

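Over all alternatives run, 0 autosomal bins passed the test against the minimum change. By contrast, 995 passed with no minimum, and the protocol difference passed in 717 with no minimum. With no minimum, 72 bins of 5 Mb were higher and 152 lower, voom called 155 higher and 691 lower, and GC correction, alone, with a random replicate block or with that block and crossed p20 numbers, left 0 higher and 0 lower. Leaving out 1 library in turn gave 0 to 522 higher and 0 to 773 lower bins, 0 to 6 chromosomes, 0 to 1179 bins for the protocol difference and 0 to 4 chromosomes for it. GC correction left 0 bins and 0 chromosomes for the protocol difference. The number of chromosomes called was 1 with each of the 3 GC settings (chromosome 1), 1 without chromosome 3 (chromosome 16), and 2 with the mean of bins or the share of reads (chromosomes 1 and 16). GC correction brought the SD of the change to 0.0315 and its GC slope to -1.08e-05, and chromosome 11 to -0.0040 in each of the 3 GC settings.

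GC correction, which also moved the median of all autosomal bins to -0.017, turned the sign for Pou5f1 (-0.015), Klf4 (-0.038), Trp53 (-0.048), Aurka (-0.018), Bcl2l1 (-0.032), Grb2 (-0.0080), Akt1 (-0.0049), Uhrf1 (-0.032) and Rps15 (-0.017). In 100 kb bins the sign turned for Myc (0.0049). Without 1 library, Nanog ranged from -0.044 to 0.0012 and Klf4 from -0.0048 to 0.013. Apart from the GC correction, whose construction removes the trend with GC content, the cause was not tested.

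The replicate numbers name the lines, although those at p20 may be crossed. With them as a random replicate block 440 bins were higher and 721 lower with no minimum, with p20 numbers crossed 456 and 716, and as a fixed block 463 and 715. The block moved the protocol difference to 944 bins (933 crossed) and left 1 chromosome for it, and without GC correction called 0 chromosomes for p20 against p10. Without GC correction the block changed no call among the named bins and chromosomes. Depth limits single 10 kb windows, where counting alone gave an SD of 0.122 of the 0.160 found, and 2 libraries a group limit every test.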

Other observations

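Of the autosomal bins with non-overlapping groups, the 8 lowest after GC correction, looked at after their values were seen, included, beside the bin with the high-count window, chr7:23000001-24000000, with vomeronasal receptors of the Vmn1r family (GC-corrected log2FC -0.11), and chr4:146000001-147000000, with a cluster of zinc finger genes (-0.11). With limma's test with no minimum both were called lower as deposited (adjusted p 0.0124 and 0.0157), and neither after GC correction (adjusted p 0.143 for each). Genes of such families share near-identical sequence, which makes the assignment of reads, and so these values, uncertain.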
